A study of Mus musculus with 6 samples.

Results

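The genes of glycolysis, of the entry of pyruvate into mitochondria and of the pentose phosphate pathway were followed in splenic regulatory T (Treg) cells with and without the GTPase Cdc42. The set was 38 genes picked by symbol for their place in these pathways: transporters of glucose and lactate, the enzymes of each step, and the transcription factor Hif1a. Of the 38 symbols, 37 were matched in the deposited tables of 14608 genes, and Eno1, which encodes an enolase, was not analysed here. All 37 had a mean of at least 0.5 RPKM (reads scaled by gene length and library size) over the 6 libraries, the level that kept 12233 genes for testing.

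The libraries came from CD4+ and YFP+ cells sorted from the spleens of 2 wild-type mice (WT), 2 mice with a heterozygous Cdc42 knockout (Cdc42+/-) and 2 with a homozygous one (Cdc42-/-). Cdc42 is a small GTPase that organises actin and cell polarity. The labels give no age, sex or batch, and the promoter that drives YFP or the deletion is not given in the sources used here. With 6 libraries described as coming from 6 mice, p-values measure the spread between these few libraries.

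Glycolysis splits glucose into pyruvate: the preparatory steps spend ATP to make triose phosphates, and the payoff steps return ATP and NADH. Pyruvate is then reduced to lactate by lactate dehydrogenase, which renews NAD, or is carried into mitochondria and oxidised by pyruvate dehydrogenase, while the pentose phosphate pathway draws glucose-6-phosphate off to make NADPH and ribose for nucleotides. T cells raise glycolysis when they are activated and divide, Treg cells are known to lean more on mitochondrial oxidation, and HIF-1 drives many glycolytic genes when oxygen is low.

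The libraries held between 8556576 and 17796100 reads in genes. Cdc42 itself was at 166 and 161 RPKM (WT), 164 and 156 RPKM (labelled Cdc42+/-) and 122 and 173 RPKM (labelled Cdc42-/-), so the level of the whole gene did not separate the labels, and a deletion of part of the gene cannot be seen in it. Genotypes below are those of the labels. All 8 Treg and T cell markers were detected in every group. Their summed level was 1727 to 1820 RPKM in WT, 1660 to 1771 RPKM in Cdc42+/- and 1136 to 1417 RPKM in Cdc42-/-. Cd3g, a chain of the T cell receptor complex, was at 426 and 408, 428 and 406 and 251 and 226 RPKM. The test described below called 3 of the 8 lower in Cdc42-/- than WT (Cd3e, Cd3g and Ikzf2) and 0 higher. Of all genes 4.57% were called lower and 6.86% higher. Ctla4 lay the other way, at 157 and 130 RPKM in WT and 202 and 201 RPKM in Cdc42-/-, and did not pass. Foxp3 was at 131 and 118, 113 and 103 and 118 and 58.4 RPKM and did not pass. Replicate 2 of Cdc42-/- stood apart, and its 12 myeloid markers summed to 1720 RPKM. That sum was 147 RPKM in replicate 1 and 186 to 253 RPKM in the other 4 libraries. Outside replicate 2 of Cdc42-/- most of each sum came from the marker Ctss. It was at 190 and 208 RPKM (WT), 170 and 149 RPKM (Cdc42+/-) and 110 and 271 RPKM (Cdc42-/-). The macrophage lysozyme gene Lyz2 was at 0.119 and 2.65 RPKM (WT), 5.30 and 7.28 RPKM (Cdc42+/-) and 9.75 and 600.2 RPKM (Cdc42-/-). The sex-linked transcripts also differed: the Y-linked Ddx3y was at 37.7 and 42.4 RPKM (WT), 0.126 and 0 RPKM (Cdc42+/-) and 0.0974 and 27.5 RPKM (Cdc42-/-), and Xist was at 0.199 and 1.13, 99.3 and 93.3 and 87.4 and 21.2 RPKM. Sex and genotype therefore cannot be told apart between WT and Cdc42+/-, and in the comparison of Cdc42-/- with WT replicate 1 of Cdc42-/- also differs from both WT libraries in these transcripts. Replicate 2 of Cdc42-/- held both at intermediate levels, and whether it holds cells of more than 1 mouse was not tested. Of the genes followed, 3 (Pgk1, Pdha1 and G6pdx) lie on the X chromosome. Summed levels of 5 erythroid markers were 0.649 to 1.47 RPKM in WT, 0.908 to 1.32 RPKM in Cdc42+/- and 7.33 to 36.3 RPKM in Cdc42-/-. The lists for B cells, for CD8 T and NK cells and for megakaryocytes each summed to less than 20 RPKM in every library. Only 5 of 10 erythroid, 3 of 5 CD8 T and NK and 1 of 4 megakaryocyte markers were matched. The sums of these 3 lists therefore cannot show how many such cells the libraries held.

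Most steps from glucose uptake to lactate were transcribed at a higher level in the libraries labelled Cdc42-/- than in WT. Of the 37 genes, 13 rose and 1, Ldhb, fell. The genes that rose were Slc2a1, Slc16a3, Hk2, Pfkl, Pfkp, Aldoa, Tpi1, Gapdh, Pgk1, Pgam1, Pkm, Ldha and Pgd. Summed over the 37 genes, the level was 1812 and 1774 RPKM (WT), 1873 and 1830.0 RPKM (Cdc42+/-) and 2602 and 3142 RPKM (Cdc42-/-), a ratio of 1.60 for Cdc42-/- over WT and 1.03 for Cdc42+/- over WT. Both Cdc42-/- libraries lay above the other 4 in this sum.

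These calls come from limma with Benjamini-Hochberg adjustment at 0.05, fitted on log2(RPKM + 1) over all 12233 genes, a scale that understates the change of low genes. Of all genes, 6.86% rose and 4.57% fell in Cdc42-/-, against 35.1% and 2.70% of the 37. The median log2 fold change of the 37 was 0.46, and that of all genes tested was 0.01. For 25 of the 37 genes both Cdc42-/- libraries lay above both WT libraries, and for 5 both lay below, where 28.9% and 27.1% of all genes did so. Counts of calls moved with the libraries in the fit: 18 of the 37 passed without Cdc42-/- replicate 2, which kept all 14 and added Hif1a, Pdha1, Pdk1 and Tkt, and 23 passed without Cdc42-/- replicate 1. Without WT replicate 1, 2 passed (Ldha and Slc16a3), without WT replicate 2 only Ldha did, 7 passed without either of the Cdc42+/- libraries in turn, and 6 passed when Cdc42+/- was left out altogether. Of the 14 calls, that of Ldha held in all 17 alternative analyses. Those of Slc16a3, Hk2, Tpi1, Gapdh and Pgk1 were each lost in 2, that of Pkm in 3, those of Pfkl, Pfkp and Pgam1 each in 5 and the other 4 in 6 to 9.

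**Figure D1:**
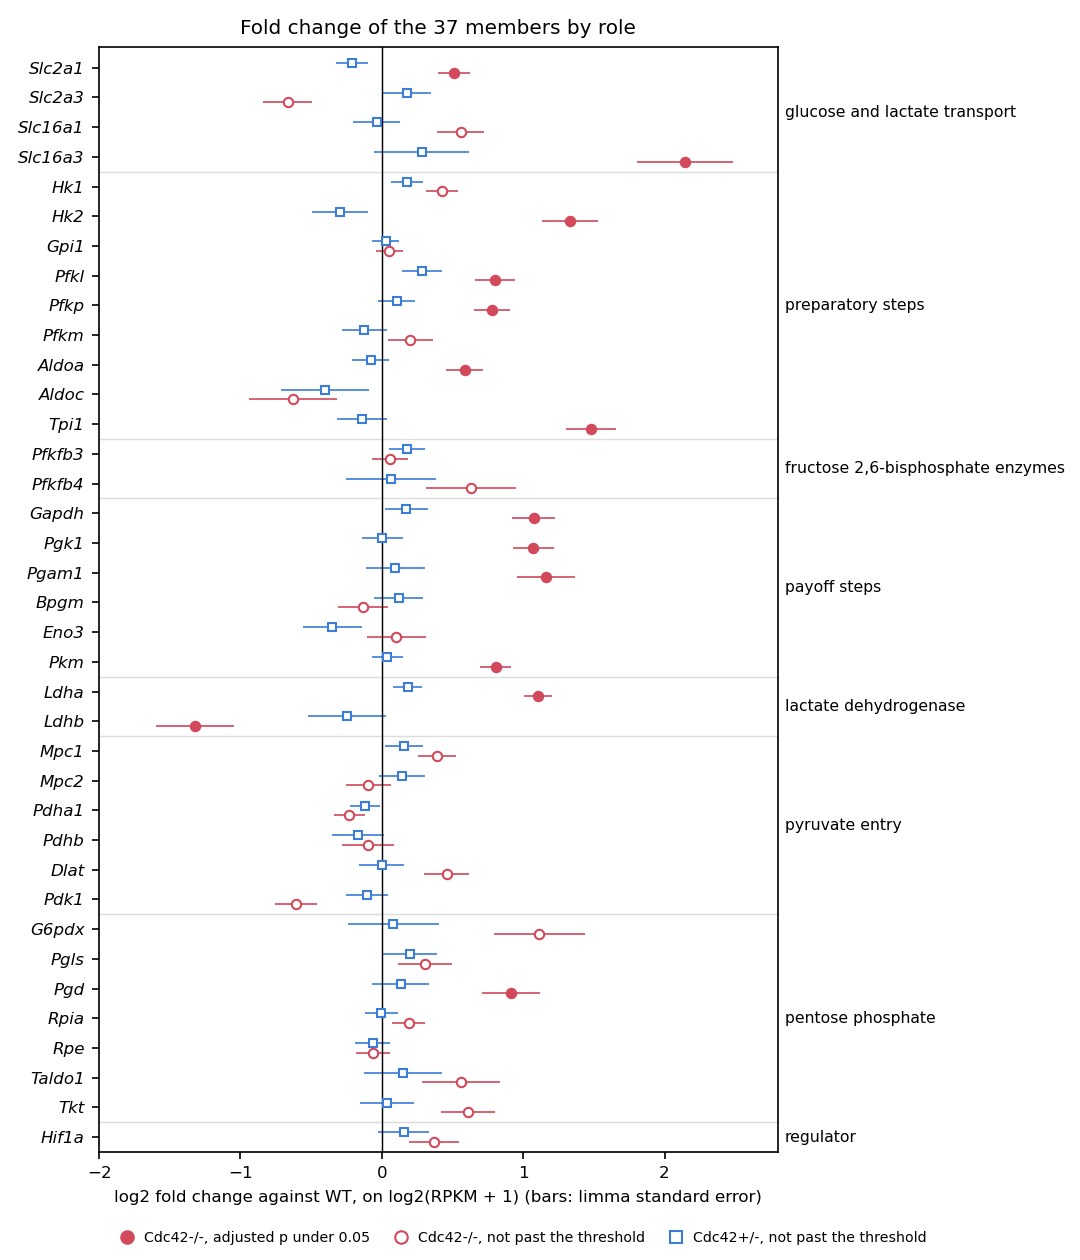
Log2 fold change against WT of the 37 genes, ordered by role, on the log2(RPKM + 1) scale (x axis), with limma standard errors as bars. Circles are Cdc42-/-, filled where the adjusted p was under 0.05, and squares are Cdc42+/-. The filled circles run from Ldhb at -1.32 to Slc16a3 at 2.14, while the squares stay between -0.40 and 0.29.

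Because many of these genes moved together, the promoters of the set were read from RefSeq (GRCm38.p6): 49 windows of 300 bases, from 250 before to 50 after a transcript start, for 36 of the 37 genes. Each window was searched on both strands for ACGTG and GCGTG, the core letters of the element that HIF-1 binds, and for CACGTG, the E box bound by Myc and related factors, which contains ACGTG on each strand. ACGTG was found in 40.8% of the 49 windows and in 19.6% of all 32851 windows in the table, GCGTG in 57.1% and 32.4%, and CACGTG in 10.2% and 7.15%. Base composition differed too, with a median of 61.0% G and C in the 49 windows and 52.7% in all. The 18 windows of the 13 genes that rose held ACGTG more often than the other 31 windows (55.6% and 32.3%) but GCGTG less often (44.4% and 64.5%). CACGTG was in 5.56% and 12.9% of them, and at least 1 of ACGTG and GCGTG in 77.8% and 74.2%. The median G and C content of the 2 sets was 64.8% and 60.3%, and these differences were not tested. Windows of the same gene were counted separately. Some of them overlap, among them windows of Aldoa and of Pfkm, so the same match can count in several windows. A match describes the letters of a window and does not show that a factor binds there.

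The promoters of 4 genes are printed, 5′ to 3′ on the strand of the gene, with every match to these motifs in capitals: Ldha and Ldhb, whose transcripts moved in opposite directions, and Slc16a3 and Hk2, which belong with Tpi1 to the 3 genes of the set with the highest fold change. The Ldha window (chr7:46845554-46845853, plus strand) is the first of 2 in the table and holds 5 matches to ACGTG, 4 of them from its 2 CACGTG boxes, and 2 matches to GCGTG. The Ldhb window (chr6:142507908-142508207, minus strand) holds 1 GCGTG and no ACGTG, and the windows of Slc16a3 (chr11:120948817-120949116, plus strand) and Hk2 (chr6:82774405-82774704, minus strand) hold 2 ACGTG each.
Ldha: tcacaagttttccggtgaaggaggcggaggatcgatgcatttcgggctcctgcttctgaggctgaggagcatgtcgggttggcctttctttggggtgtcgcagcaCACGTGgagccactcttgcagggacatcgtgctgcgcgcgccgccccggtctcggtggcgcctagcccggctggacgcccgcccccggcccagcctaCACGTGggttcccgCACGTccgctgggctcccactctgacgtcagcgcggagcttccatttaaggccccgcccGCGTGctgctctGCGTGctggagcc
Ldhb: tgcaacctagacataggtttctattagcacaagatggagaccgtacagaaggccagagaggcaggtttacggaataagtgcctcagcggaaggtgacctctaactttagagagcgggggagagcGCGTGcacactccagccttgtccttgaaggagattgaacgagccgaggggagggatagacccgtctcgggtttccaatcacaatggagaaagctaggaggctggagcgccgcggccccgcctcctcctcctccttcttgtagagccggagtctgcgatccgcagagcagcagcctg
Slc16a3: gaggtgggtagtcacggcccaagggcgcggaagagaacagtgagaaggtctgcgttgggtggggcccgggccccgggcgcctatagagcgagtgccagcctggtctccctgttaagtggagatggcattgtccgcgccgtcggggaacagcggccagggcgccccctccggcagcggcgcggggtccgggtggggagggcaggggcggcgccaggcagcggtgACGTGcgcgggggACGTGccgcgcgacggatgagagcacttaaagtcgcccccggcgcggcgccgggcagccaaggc
Hk2: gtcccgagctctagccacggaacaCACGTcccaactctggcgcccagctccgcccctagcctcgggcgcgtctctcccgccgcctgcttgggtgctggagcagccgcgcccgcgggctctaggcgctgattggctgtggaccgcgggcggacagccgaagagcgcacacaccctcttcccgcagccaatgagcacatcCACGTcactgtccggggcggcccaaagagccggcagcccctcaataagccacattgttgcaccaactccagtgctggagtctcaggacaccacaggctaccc

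The transporters at both ends of the pathway changed their makeup. The lactate exporter Slc16a3 (MCT4) was at 3.97 and 1.86 RPKM (WT), 4.78 and 2.64 RPKM (Cdc42+/-) and 14.5 and 16.9 RPKM (Cdc42-/-). Both Cdc42-/- libraries lay above the other 4, which gave a log2 fold change of 2.14 over WT (SE 0.34, adjusted p 0.0137). Its promoter, with 2 matches to ACGTG, is printed above. Slc16a1 (MCT1), the monocarboxylate transporter with the higher level in WT, was at 10.8 and 10.7, 11.6 and 9.45 and 14.6 and 18.2 RPKM, a log2 fold change of 0.56 in Cdc42-/- that missed the threshold (adjusted p 0.0832).

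Glucose transporters shifted towards 1 paralogue. Slc2a1 (GLUT1), a glucose transporter that T cells raise on activation, was at 21.2 and 21.9 RPKM (WT), 18.4 and 18.6 RPKM (Cdc42+/-) and 32.8 and 29.5 RPKM (Cdc42-/-), and rose against WT by a log2 fold change of 0.51 (SE 0.11, adjusted p 0.0387). Slc2a3 (GLUT3), a high-affinity transporter, was at 31.0 and 25.4, 33.4 and 30.4 and 19.9 and 15.1 RPKM, with a log2 fold change of -0.67 against WT (SE 0.17, adjusted p 0.0589). Both Cdc42-/- libraries lay above the other 4 for Slc2a1 and below the other 4 for Slc2a3, while WT and Cdc42+/- overlapped for Slc2a3. Slc2a1 made up 40.6% and 46.3% (WT), 35.5% and 37.9% (Cdc42+/-) and 62.2% and 66.2% (Cdc42-/-) of the RPKM of the pair, so that Slc2a3 was the larger of the pair in the first 2 genotypes and Slc2a1 in Cdc42-/-. The Slc2a1 call was lost in 9 of the 17 alternative analyses, each with a positive fold change.

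Of the 9 genes of the preparatory steps, 5 rose and 0 fell, where 6.86% and 4.57% of all genes did so. Hexokinases trap glucose by phosphorylation. Hk1, the constitutive form, was at 41.6 and 37.9 RPKM (WT), 47.9 and 42.3 RPKM (Cdc42+/-) and 52.8 and 54.6 RPKM (Cdc42-/-) (log2 fold change 0.43 against WT, adjusted p 0.0628). Hk2, the inducible form, was at 1.99 and 2.52, 1.76 and 1.53 and 6.73 and 7.67 RPKM, and both Cdc42-/- libraries lay above all others. Relative to WT its log2 fold change was 1.33 (SE 0.20, adjusted p 0.0119). Hk2 supplied 4.58% and 6.24% (WT), 3.55% and 3.49% (Cdc42+/-) and 11.3% and 12.3% (Cdc42-/-) of the hexokinase RPKM, and Hk1 remained the main transcript in all 6 libraries.

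Gpi1, which turns glucose-6-phosphate into fructose-6-phosphate, was nearly level, at 145 and 137 RPKM (WT), 146 and 141 RPKM (Cdc42+/-) and 144 and 148 RPKM (Cdc42-/-). At the next step, the committed reaction of glycolysis, the liver-type and platelet-type phosphofructokinases rose. Pfkp was at 30.8 and 26.4, 31.8 and 29.8 and 53.4 and 46.2 RPKM (log2 fold change 0.78 against WT, SE 0.13, adjusted p 0.0167). Pfkl was at 14.6 and 11.9, 16.1 and 16.6 and 25.2 and 22.5 RPKM (log2 fold change 0.80, SE 0.14, adjusted p 0.0194). The muscle-type Pfkm was at 9.43 and 9.36, 8.17 and 8.92 and 9.72 and 12.3 RPKM and did not pass the threshold (adjusted p 0.438). Pfkp remained the main form, with 53.8% to 60.5% of the RPKM of the 3 genes over the 6 libraries, and the share of Pfkm was 17.2% and 19.6% (WT), 14.6% and 16.1% (Cdc42+/-) and 11.0% and 15.2% (Cdc42-/-).

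Aldolase splits the sugar, and triose phosphate isomerase makes both products usable. Aldoa was at 146 and 144 RPKM (WT), 139 and 136 RPKM (Cdc42+/-) and 194 and 246 RPKM (Cdc42-/-) (log2 fold change 0.59 against WT, SE 0.13, adjusted p 0.0426), and it held at least 98.0% of the aldolase RPKM in every library. The Aldoa call was lost in 8 of the 17 alternative analyses, with adjusted p up to 0.228. The minor form Aldoc was at 1.78 and 2.93, 1.50 and 1.50 and 0.725 and 1.65 RPKM (adjusted p 0.233). Tpi1 and Hk2 had the highest fold changes among the enzymes, with Tpi1 first on the log2(RPKM + 1) scale and Hk2 first by the ratio of mean RPKM (2.88 for Tpi1 and 3.19 for Hk2). Tpi1 went from 36.9 and 41.2 RPKM in WT and 33.8 and 36.9 RPKM in Cdc42+/- to 93.1 and 132 RPKM in Cdc42-/-, a log2 fold change of 1.48 against WT (SE 0.18, adjusted p 0.00581). Its single promoter window in the table holds neither ACGTG nor GCGTG.

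Pfkfb3 and Pfkfb4 set the level of fructose 2,6-bisphosphate, the activator of phosphofructokinase, and neither passed the threshold. Pfkfb3 was at 11.5 and 11.0, 12.2 and 13.6 and 11.9 and 11.6 RPKM in WT, Cdc42+/- and Cdc42-/-. Pfkfb4 was at 1.66 and 1.74, 1.94 and 1.72 and 2.10 and 4.66 RPKM, with its highest value in Cdc42-/- replicate 2.

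Of the 6 genes of the payoff steps, 4 rose and 0 fell, where 6.86% and 4.57% of all genes did so. Their summed level was 573 and 583 RPKM (WT), 621 and 584 RPKM (Cdc42+/-) and 986 and 1235 RPKM (Cdc42-/-), 1.92 times the WT mean. Gapdh, which makes NADH, was at 152 and 146, 173 and 162 and 273 and 361 RPKM in the same order. Pgk1, which makes the first ATP of the payoff, was at 106 and 116, 116 and 107 and 207 and 267 RPKM. The mean level of each was 2.13 times that of WT, with log2 fold changes against WT of 1.07 (SE 0.15, adjusted p 0.00967) and 1.07 (SE 0.15, adjusted p 0.00873), and the Cdc42-/- libraries overlapped no other library. Gapdh is often used as a reference gene for normalisation, and its mean level here was 149 ± 4.41 RPKM in WT and 317 ± 62.6 RPKM in Cdc42-/- (SD, n = 2).

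Pgam1, the phosphoglycerate mutase, was at 39.4 and 42.7 RPKM (WT), 45.5 and 42.4 RPKM (Cdc42+/-) and 74.5 and 116 RPKM (Cdc42-/-) (log2 fold change 1.16 against WT, SE 0.21, adjusted p 0.0203). Pkm, the pyruvate kinase and the most abundant of the 37 transcripts in WT, was at 242 and 246, 258 and 243 and 403 and 453 RPKM (log2 fold change 0.80, SE 0.11, adjusted p 0.00887). Its M1 and M2 splice forms share the gene-level value and were not separated. Bpgm, which makes the side product that tunes haemoglobin in red cells, was at 8.75 and 11.2, 11.9 and 9.86 and 9.14 and 8.79 RPKM, and the muscle enolase Eno3 was at 23.9 and 20.9, 16.2 and 18.5 and 19.6 and 29.6 RPKM. Neither of these passed the threshold against WT (adjusted p 0.646 and 0.772), and the Cdc42-/- and WT libraries overlapped for both. Both Cdc42+/- libraries lay below the other 4 for Eno3 and above the Cdc42-/- libraries for Bpgm. Eno1b, a near-identical copy of Eno1 outside the set that was singled out after its values were seen, was at 4.53 and 5.31, 9.65 and 10.03 and 31.3 and 29.5 RPKM (log2 fold change 2.41 in Cdc42-/- against WT, adjusted p 0.00144), and its reads may include those of other enolase loci.

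The pair of lactate dehydrogenase subunits moved in opposite directions. Ldha, the subunit that predominates in glycolytic tissue, was at 186 and 183 RPKM (WT), 204 and 216 RPKM (Cdc42+/-) and 384 and 412 RPKM (Cdc42-/-), a log2 fold change of 1.10 against WT (SE 0.10, adjusted p 0.00279). Ldhb, the subunit that predominates in oxidative tissue, was at 45.3 and 36.5, 36.3 and 32.0 and 21.3 and 11.5 RPKM, a log2 fold change of -1.32 (SE 0.28, adjusted p 0.034). Cdc42-/- libraries lay above all others for Ldha and below all others for Ldhb. The ratio of Ldha to Ldhb RPKM was 4.11 and 4.99 (WT), 5.61 and 6.74 (Cdc42+/-), and 18.0 and 35.9 (Cdc42-/-), so that the 3 genotypes did not overlap, and Ldhb held 19.6% and 16.7%, 15.1% and 12.9% and 5.25% and 2.71% of the pair. The Ldha call held in 17 of 17 alternative analyses, with adjusted p from 0.000211 to 0.0463, and the Ldhb call in 11, with a fold change below 0 in each of the 17.

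**Figure D2:**
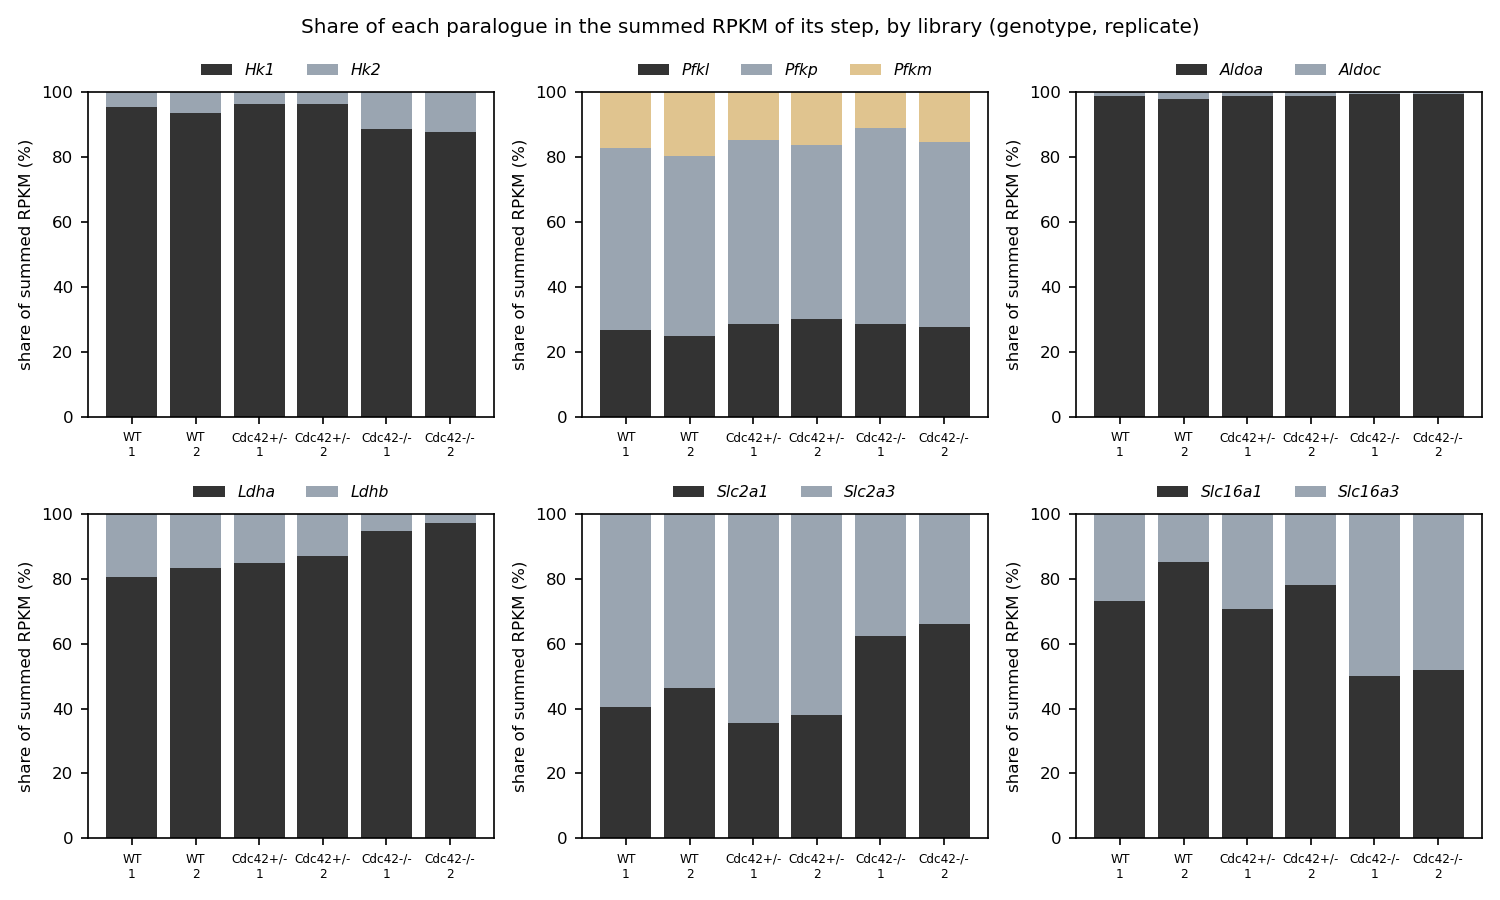
Share of each paralogue in the summed RPKM of its step (y axis, percent) in each of the 6 libraries (x axis, genotype and replicate). In the Cdc42-/- libraries Ldhb took 5.25% and 2.71% of the lactate dehydrogenase RPKM, Hk2 took 11.3% and 12.3% of the hexokinase RPKM and Slc2a1 took 62.2% and 66.2% of its pair. Pfkm took 17.2% and 19.6% of the phosphofructokinase RPKM in WT and 11.0% and 15.2% in Cdc42-/-, and Aldoa took at least 98.0% of the aldolase RPKM in every library.

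None of the 6 genes that bring pyruvate into mitochondria passed in limma, where 6.86% of all genes rose and 4.57% fell, so that a count of 0 among 6 genes is near the background. Their summed level was 205 and 209 RPKM (WT), 196 and 201 RPKM (Cdc42+/-) and 181 and 206 RPKM (Cdc42-/-). An unadjusted p under 0.05 against WT was seen for 3 of the 6, against 29.3% of all genes. Dlat, the acetyltransferase core of pyruvate dehydrogenase, was at 10.9 and 8.51, 9.69 and 9.55 and 12.9 and 14.4 RPKM (adjusted p 0.12), and Mpc1, a subunit of the mitochondrial pyruvate carrier, was at 24.5 and 26.1, 31.5 and 25.5 and 33.9 and 33.1 RPKM (adjusted p 0.114). Pdk1, the kinase that switches pyruvate dehydrogenase off and itself a known HIF-1 target, lay the other way, at 37.5 and 35.2 RPKM (WT), 32.0 and 35.6 RPKM (Cdc42+/-) and 26.7 and 20.6 RPKM (Cdc42-/-) (log2 fold change -0.61, SE 0.15, adjusted p 0.0525). Pdk1 was lower than in WT in each of the 17 alternative analyses (log2 fold change -0.79 to -0.43), and it passed the threshold in 5 of them. The other carrier subunit Mpc2 and the pyruvate dehydrogenase subunits Pdha1 and Pdhb had fold changes of -0.09, -0.23 and -0.10 on the log2 scale, with adjusted p of 0.729, 0.219 and 0.756.

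In the pentose phosphate pathway 1 of 7 genes rose, a count near the background of 6.86% of all genes, and the Cdc42-/- replicates disagreed. Both Cdc42-/- libraries lay above both WT libraries for 5 of the 7, against 28.9% of all genes. An unadjusted p under 0.05 in limma was seen for 3, against 29.3% of all genes, and the median log2 fold change was 0.56. The summed level of the 7 was 252 and 239 RPKM (WT), 258 and 265 RPKM (Cdc42+/-) and 294 and 465 RPKM (Cdc42-/-), where the higher value belongs to replicate 2, the library with the high myeloid markers. Pgd, the second NADPH-producing enzyme, was at 29.3 and 26.8, 30.6 and 31.1 and 43.2 and 66.8 RPKM (log2 fold change 0.91 against WT, SE 0.20, adjusted p 0.0399), and 0.91 became 0.60 (adjusted p 0.00925) without that library. The Pgd call was lost in 8 of the 17 alternative analyses, with adjusted p up to 0.224. G6pdx, the enzyme that commits glucose-6-phosphate to the pathway, was at 18.8 and 13.5, 19.0 and 15.1 and 25.7 and 49.3 RPKM and did not pass (log2 fold change 1.11, SE 0.32, adjusted p 0.0781), and its log2 fold change was 0.66 (adjusted p 0.0768) without replicate 2. Both of its Cdc42-/- values lay above all others, and replicate 2 was the highest.

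The same library was highest for the enzymes that exchange carbon with glycolysis. Taldo1, the transaldolase, was at 81.2 and 74.6, 80.7 and 92.8 and 84.7 and 157 RPKM in WT, Cdc42+/- and Cdc42-/- (adjusted p 0.232), and Tkt, the transketolase, was at 58.5 and 61.9, 62.4 and 61.0 and 75.1 and 114 RPKM (adjusted p 0.0964). Among the rest, the lactonase Pgls was at 24.0 and 18.8, 24.5 and 24.7 and 22.5 and 31.2 RPKM, the isomerase Rpia at 26.4 and 28.5, 28.0 and 26.8 and 29.4 and 33.6 RPKM, and the epimerase Rpe at 13.7 and 14.8, 13.3 and 14.0 and 13.4 and 13.9 RPKM. None of these passed (adjusted p 0.326, 0.322 and 0.761). In the same library Hk3, a hexokinase of myeloid cells outside the set that was singled out after its values were seen, was at 9.45 RPKM, against 0.306 to 0.704 RPKM in the other 5. Among the genes of the set outside this pathway that rose in Cdc42-/-, Slc2a1, Pfkl and Pfkp were lower in replicate 2 than in replicate 1. The rest of those genes were higher in replicate 2, as was Pgam1, at 74.5 and 116 RPKM. Whether myeloid cells contributed to the pentose phosphate or the glycolytic values of replicate 2 was not tested.

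Hif1a, the oxygen-regulated subunit of HIF-1, was at 41.2 and 38.3 RPKM (WT), 49.0 and 40.0 RPKM (Cdc42+/-) and 60.2 and 44.2 RPKM (Cdc42-/-). Relative to WT its log2 fold change was 0.37 (SE 0.18, adjusted p 0.228), with 0.59 (adjusted p 0.0243) when Cdc42-/- replicate 2 was left out and 0.15 (adjusted p 0.426) when replicate 1 was. HIF-1 activity is set mainly through the stability of the Hif1a protein, which these data do not measure.

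**Figure D3:**
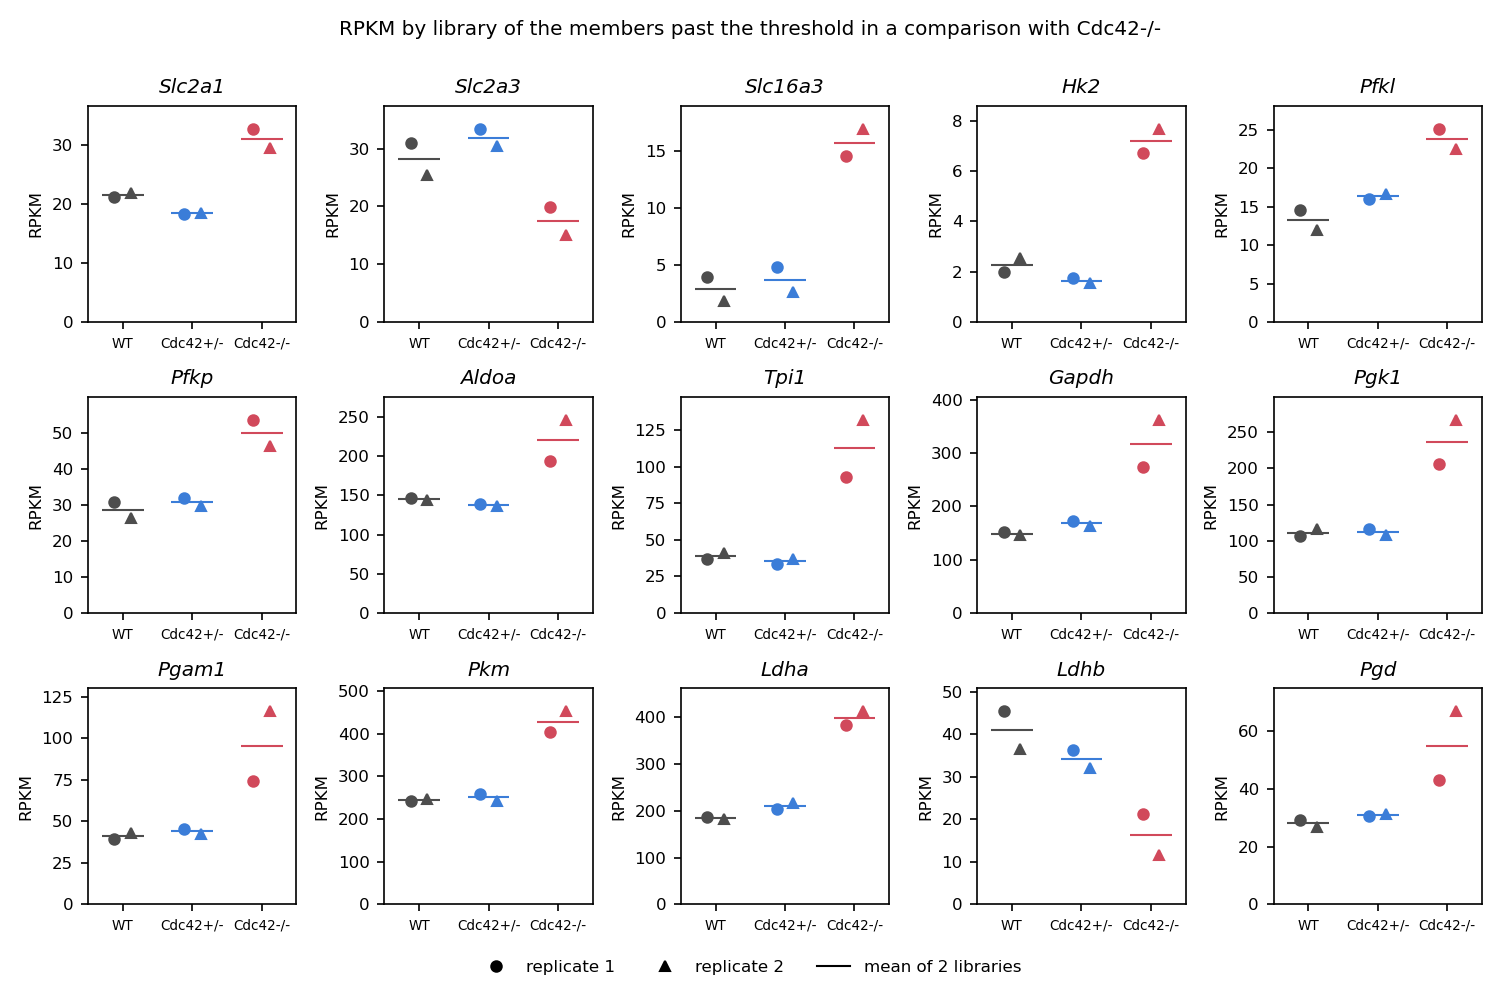
RPKM (y axis, from 0) of the 15 genes that passed the threshold in a comparison with Cdc42-/-, by genotype (x axis). Circles are replicate 1, triangles replicate 2 and lines the mean of 2 libraries; in 13 panels both Cdc42-/- libraries lie above all 4 others, and for Slc2a3 and Ldhb both lie below.

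Other genes around the pathway were read from the same fit. Counts of calls in these lists also moved with the libraries in the fit, and the share of all genes that passed was 6.86% higher and 4.57% lower, as above. With each library left out in turn, 0 to 14 of the further glucose metabolism genes were called, 0 to 9 of the serine and one-carbon genes, 0 to 9 of the citrate cycle genes and 1 to 7 of the hypoxia genes. Of 36 further genes of glucose metabolism that were tested, 0 rose and 1 fell (median log2 fold change 0.09): Galm, which interconverts the anomers of galactose and glucose, was at 16.7 and 18.6 RPKM (WT), 18.5 and 15.9 RPKM (Cdc42+/-) and 3.30 and 5.22 RPKM (Cdc42-/-) (log2 fold change -1.85, adjusted p 0.00469). In the serine and one-carbon branch, which leaves glycolysis at 3-phosphoglycerate, 5 of 10 genes rose and 0 fell (median 0.69). Phgdh, its first enzyme, went from 56.4 and 53.4 RPKM in WT to 91.4 and 109 RPKM (log2 fold change 0.85, adjusted p 0.01), and Psat1, its second, from 20.2 and 15.8 to 39.9 and 60.8 RPKM (1.41, adjusted p 0.0135). Tyms, the thymidylate synthase gene, rose by 1.43 on the log2 scale (adjusted p 0.0268).

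Of the 18 citrate cycle genes 1 rose (5.56%) and 0 fell, a share close to that of all genes. The gene that rose was the succinate dehydrogenase subunit Sdhb (log2 fold change 0.63, adjusted p 0.0346). The median of the list was 0.23, an unadjusted p under 0.05 was seen for 9 of the 18, against 29.3% of all genes, and both Cdc42-/- libraries lay above both WT libraries for 10 and below them for 2, against 28.9% and 27.1% of all genes. Whether the list differed from the glycolytic genes was not tested. Of 17 HIF partners, hydroxylases and other hypoxia genes, 4 rose and 1 fell (median 0.23), where 6.86% and 4.57% of all genes did so. Ndrg1, a stress-response gene, rose by 1.57 on the log2 scale from 5.98 and 7.32 RPKM in WT to 19.9 and 23.6 RPKM (adjusted p 0.00411). The HIF-2 alpha gene Epas1 rose by 2.11 on that scale (adjusted p 0.03), from 1.28 and 1.70 RPKM in WT to 5.83 and 15.8 RPKM, and the HIF prolyl hydroxylase gene Egln3 by 1.55 (adjusted p 0.0306), to 4.87 and 8.88 RPKM. For both the higher value was that of replicate 2 of Cdc42-/-, the library with the high myeloid markers, and the part of those cells was not tested. Ankrd37 rose by 0.90 (adjusted p 0.0392), while Bnip3l, a mitophagy receptor gene, fell by 0.42 (adjusted p 0.043). Bnip3l is the fifth by p and is named because it was the single gene of the list that fell.

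All 22 genes of the proliferation list rose in Cdc42-/- against WT, where 6.86% of all genes did so, with a median log2 fold change of 3.34. Their summed level was 255 and 251 RPKM (WT), 463 and 409.9 RPKM (Cdc42+/-) and 1194 and 1735 RPKM (Cdc42-/-). Mki67, the Ki-67 gene, was at 6.53 and 7.73, 28.0 and 21.6 and 118 and 144 RPKM, and the topoisomerase gene Top2a at 12.3 and 13.8, 37.4 and 34.0 and 138 and 203 RPKM. Both Cdc42-/- libraries thus lay above WT in this sum as in the sum over the 37 genes. In Cdc42+/- the proliferation sum was 1.72 times WT, the sum over the 37 genes 1.03 times and that of the payoff steps 1.04 times. What part dividing cells have in the levels of the 37 genes was not tested, and in bulk RNA more cells with a high level and more RNA per cell cannot be told apart.

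**Figure D4:**
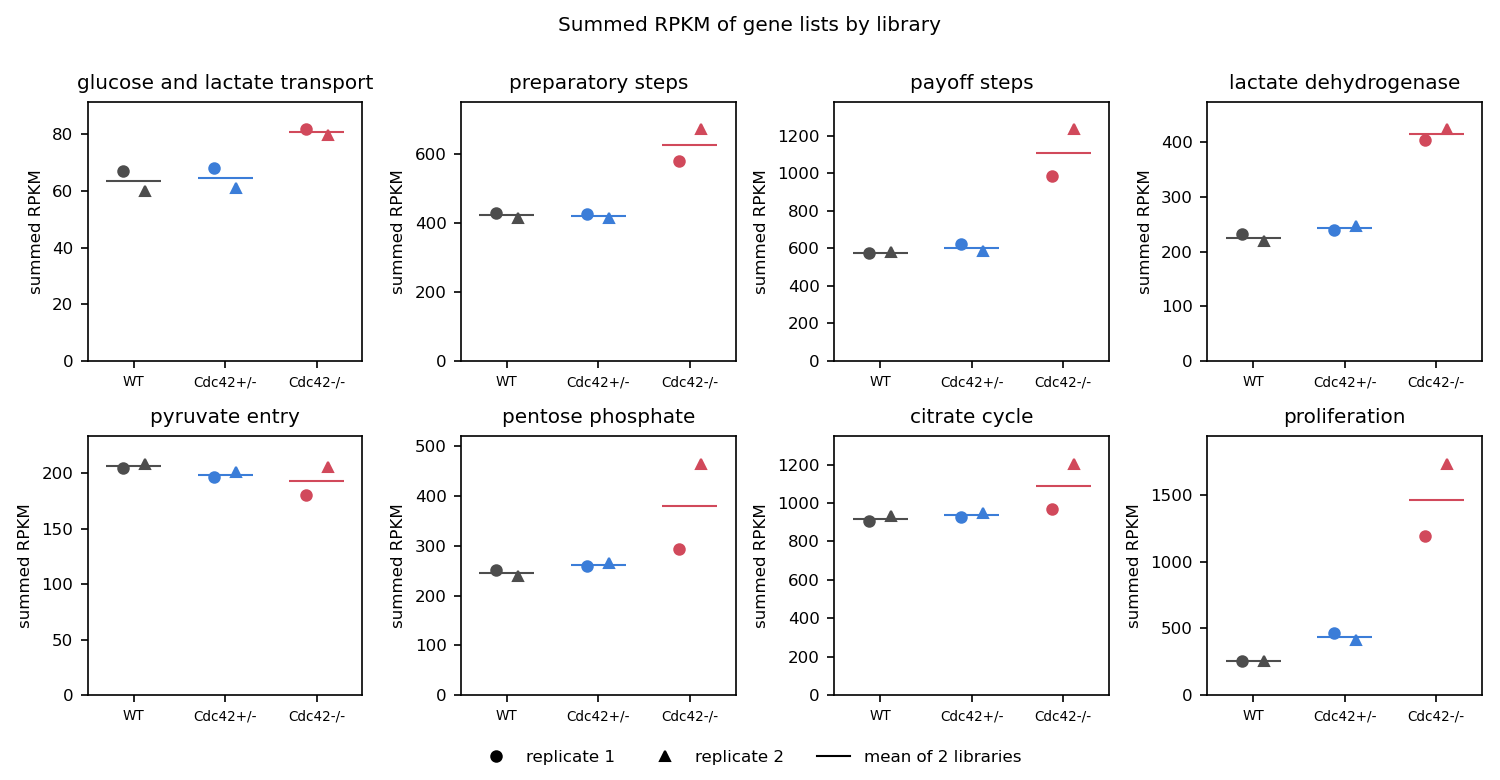
Summed RPKM (y axis, from 0) of 6 groups of the genes followed and of the citrate cycle and proliferation lists, by genotype (x axis), with circles for replicate 1, triangles for replicate 2 and lines for the mean of 2 libraries. The payoff and lactate dehydrogenase sums of both Cdc42-/- libraries lie above the other 4, the pyruvate entry sum does not, and the proliferation sum of Cdc42+/- also lies above WT.

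In heterozygous cells none of the 37 genes passed the test. In Cdc42+/- against WT 0 of the 37 rose and 0 fell in limma, where 0% of all genes tested passed in each direction, and 0 of the 37 had an unadjusted p under 0.05, against 4.32% of all genes. The median log2 fold change of the 37 was 0.04, and that of all genes was 0.03. Values ran from -0.40 for Aldoc to 0.29 for Pfkl. Both Cdc42+/- libraries lay above both WT libraries for 8 genes and below them for 8, where 26.2% and 17% of all genes did so. Among the genes that rose in Cdc42-/-, Ldha had a log2 fold change of 0.18 (SE 0.10), Gapdh of 0.17 (SE 0.15), Pgk1 of 0.00 (SE 0.15), Tpi1 of -0.14 (SE 0.18) and Hk2 of -0.30 (SE 0.20) in Cdc42+/-, each with an adjusted p of 0.999. The count of calls among the 37 stayed at 0 in all 17 alternative analyses, including those without a Cdc42-/- library, where 76 or 96 of all genes passed.

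Set directly against Cdc42+/-, Cdc42-/- had higher levels of several glycolytic enzymes, among them Hk2 and Ldha. Gpi1 was nearly level (log2 fold change 0.02, adjusted p 0.887 in limma), and Hk1, Pfkm and Eno3 did not pass. Of the 37 genes, 11 rose and 1 fell, where 4.68% and 3.54% of all genes did. The 11 were Slc2a1, Slc16a3, Hk2, Pfkp, Aldoa, Tpi1, Gapdh, Pgk1, Pgam1, Pkm and Ldha, and the gene that fell was Slc2a3. Hk2 and Tpi1 had log2 fold changes of 1.63 (SE 0.20, adjusted p 0.0112) and 1.62 (SE 0.18, adjusted p 0.0096). Ldha was higher by 0.92 (SE 0.10, adjusted p 0.00977), and Slc2a3 was lower, at -0.84 (SE 0.17, adjusted p 0.0386). Ldhb was at -1.07 (adjusted p 0.0688), Pfkl at 0.52 (adjusted p 0.0795) and Pgd at 0.78 (adjusted p 0.0709), and these did not pass. The 2 comparisons with Cdc42-/- share its libraries, so their values are given side by side and are not independent of each other.

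The median over the 37 genes was 0.45 in this comparison and -0.01 over all genes, and the groups did not overlap for 23 genes above and 6 below, against 28.6% and 30.4% of all genes. Without Cdc42-/- replicate 2 the median was 0.25 and 16 genes passed, and without replicate 1 21 passed. Only 3 passed, Hk2, Ldha and Tpi1, without either WT library in turn or without WT altogether, and 0 passed without either Cdc42+/- library in turn.

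The authors' deposited table, made with a test that its headers do not name, lists 12 of the 37 genes as higher and 1 as lower in Cdc42-/- than WT at an adjusted p under 0.05, and 12 of these 13 calls are among the 14 of limma. It lists G6pdx in addition, and it does not list Slc2a1 or Aldoa. Of all 14608 genes it lists 876 as higher and 389 as lower in Cdc42-/- than WT. For Cdc42+/- against WT the authors' deposited table lists 0 of the 37, and of all 14608 genes 251 as higher and 82 as lower. Some values may hold reads of other loci: named pseudogene copies are annotated for Aldoa, Gapdh, Pgk1, Pgam1, Ldha, Ldhb and Mpc1, and 17 of the 37 genes overlap another annotated gene, in a counting whose strand setting is not given in the sources used here.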

How the data were processed

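RNA-seq was carried out on 6 libraries of sorted splenic Treg cells, 2 for each genotype, grouped by their titles. TopHat and the mouse build mm10 are named in the submitters' processing notes, and the counting tool, annotation and filters are not given in the sources used here. The authors deposited 2 tables of 14608 genes. Per the file headers they hold group means, fold changes, their log2 values, p-values and adjusted p-values, and the values of each library are RPKM computed by the authors, a unit worked out from the deposited values. The group means are a signal, size-factor scaled reads averaged by the authors, and the fold is the ratio of the authors' means. Combined with the RPKM they returned whole reads for 100.0% of values (tolerance 0.01), with library totals of 15911812 and 8556576 (WT), 15341342 and 17796100 (Cdc42+/-), 11053856 and 9123348 (Cdc42-/-). PCR copies are not independent molecules, so read numbers limit counting error only.

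limma 3.58.1 in R 4.3.3 (lmFit, eBayes with a mean-variance trend, two-sided) was fitted to log2(RPKM + 1) of the 6 libraries for the 12233 genes whose mean reached 0.5 RPKM, with Benjamini-Hochberg adjustment over all of them and a threshold of 0.05. SE is limma's moderated standard error, and the fit was tested on simulated data. Each of the 17 alternative analyses changed 1 choice. The genes followed, the pathway and marker lists and the tests were chosen with earlier results of these data known. All 37 genes are named, with up to 4 genes of each pathway list past the threshold by smallest p, Mki67 and Top2a for proliferation, and the most abundant T cell marker. Lyz2, Hk3, Eno1b, Xist, Ddx3y, Bnip3l, Cd3e, Ikzf2, Ctla4 and Foxp3 were added after their values were seen. A gene that this rule names in the one-carbon list is not reported here. By the mean over the 6 libraries, the most abundant markers of the other lists were Ctss (110.3 and 271 RPKM in Cdc42-/-), Cd79b (8.52 and 9.96), Slc4a1 (2.88 and 11.5), Cd8b1 (7.73 and 6.34) and Itga2b (1.74 and 3.66). In Cdc42-/- replicate 2 Lyz2 lay above Ctss. All 37 genes matched RefSeq by gene ID, and the promoter windows come from its GRCm38.p6 table.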

Additional observations from a re-analysis of the deposited data

How the results depend on the processing

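The number of the 37 genes called in Cdc42-/- against WT was 14, stayed within 1.5 times that count in 11 of 17 alternative analyses, was 6 with only the 2 genotypes compared and ranged from 1 to 23 with each library left out in turn. For Cdc42-/- against Cdc42+/- it was 12, stayed within 1.5 times in 11 of 17, was 3 with only the 2 genotypes compared and ranged from 0 to 21 with a library left out. A fit without a library holds fewer samples to estimate the spread, and where it leaves a genotype with 1 library that library is assumed to vary like the others. The 17 comprised 2 pseudocounts (0.1 and 0.5), no filter, a mean of at least 1 RPKM, the 2 genotypes alone, upper-quartile and median-ratio scaling, voom on the recovered reads, array weights, no trend, the replicate block and the 6 libraries left out. Of 527 values of single genes tried, 399 kept direction and side of the threshold, 116 kept direction and lost the call, 12 gained one and 0 changed sign. Over all genes the median difference of Cdc42-/- from WT was -0.06 under upper-quartile scaling and moved by less than 0.1 in every scaling. The labels do not state whether replicate numbers pair the libraries. Deviations of same-numbered libraries correlated at 0.0177 (WT and Cdc42+/-), 0.202 (WT and Cdc42-/-) and -0.0343 (Cdc42+/- and Cdc42-/-). These values cannot decide it, since the difference within Cdc42-/- also holds the myeloid and sex-linked transcripts of replicate 2. With the replicate number as a block, 12 genes were called against WT, 13 against Cdc42+/- and 0 for Cdc42+/- against WT. Depth was lowest for Aldoc and Slc16a3, with as few as 24 and 41 reads in a library.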
